A study of Mus musculus with 24 samples.

Results

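The dual-specificity MAP kinase phosphatases Dusp1, Dusp2, Dusp4, Dusp5, Dusp6 and Dusp10 were followed in mouse CD4+ CD8+ double-positive thymocytes before and after stimulation through the T cell receptor complex. Every probe set annotated to 1 of these 6 symbols was taken, which gave 7 of the 45037 probe sets tested, for 6 of 18193 genes. Dusp10 had 2 probe sets, and each of the others had 1. Thymocytes came from male Black 6J mice aged 8 weeks and were sorted on CD4 and CD8, then rested for 2 h in medium with 10% serum. They were spun onto plates coated with anti-CD3, an antibody that triggers the receptor complex, or onto uncoated plates, and RNA was taken after 30 min. The 4 genotypes were ElkSapKO, which lacks both the factors named Elk and Sap in the labels, ElkKO and SapKO, which lack 1 of them each, and wild-type (WT). Each genotype had 3 stimulated and 3 untreated arrays (24 arrays in all), and both arrays of a number came from 1 mouse, so there were 12 mice. The sources used here do not say whether the deletions were confined to T cells. All values below are log2 signals of the Mouse430_2 array, on which a difference of 1 is a 2-fold difference.

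When the T cell receptor is engaged, a kinase cascade ends in the MAP kinases ERK, JNK and p38, which are active only while phosphorylated on a threonine and a tyrosine. Dual-specificity phosphatases remove both phosphates and switch the kinases off. Several of their genes are themselves switched on by ERK signalling, so that the pathway limits its own output. In double-positive thymocytes the strength and duration of ERK activity bear on positive and negative selection. Elk and Sap belong to the ternary complex factors, ETS-family proteins that ERK phosphorylates and that bind DNA beside the serum response factor SRF. SRF binds the CArG box, and the ETS proteins bind around the core GGAA.

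Promoters are shown for the genes with the largest and the smallest changes and for Dusp1, as 300 bases of which 250 lie before the transcription start and 50 after it. Capitals mark matches to the 4 motifs searched on both strands, which were the CArG box, GGAA (read as TTCC on the other strand), the cyclic AMP response element TGACGTCA and the Egr motif GCGGGGGCG. The sequences are from RefSeq, build GRCm38.p6, where 5 of the 6 genes were matched and Dusp4 was not.
Dusp5 chr19:53528895-53529194 (+): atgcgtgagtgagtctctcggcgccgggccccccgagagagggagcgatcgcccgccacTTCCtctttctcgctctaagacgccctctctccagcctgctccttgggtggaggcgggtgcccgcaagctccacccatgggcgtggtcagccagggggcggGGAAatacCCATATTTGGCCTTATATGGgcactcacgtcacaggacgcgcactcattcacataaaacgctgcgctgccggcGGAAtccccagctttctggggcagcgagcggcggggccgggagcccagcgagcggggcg
Dusp2 chr2:127335909-127336208 (+): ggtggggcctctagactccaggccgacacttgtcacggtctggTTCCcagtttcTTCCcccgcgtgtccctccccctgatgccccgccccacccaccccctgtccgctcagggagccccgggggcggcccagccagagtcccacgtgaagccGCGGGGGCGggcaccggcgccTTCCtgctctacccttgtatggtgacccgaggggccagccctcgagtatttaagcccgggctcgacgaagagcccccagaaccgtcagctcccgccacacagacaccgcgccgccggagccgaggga
Dusp1 chr17:26508423-26508722 (-): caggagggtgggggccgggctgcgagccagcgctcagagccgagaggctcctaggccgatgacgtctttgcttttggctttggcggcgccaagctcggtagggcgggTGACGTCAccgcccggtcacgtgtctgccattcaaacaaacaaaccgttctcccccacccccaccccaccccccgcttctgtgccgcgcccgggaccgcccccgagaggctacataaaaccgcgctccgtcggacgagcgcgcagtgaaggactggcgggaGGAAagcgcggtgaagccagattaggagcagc
Dusp10 chr1:184034131-184034430 (+): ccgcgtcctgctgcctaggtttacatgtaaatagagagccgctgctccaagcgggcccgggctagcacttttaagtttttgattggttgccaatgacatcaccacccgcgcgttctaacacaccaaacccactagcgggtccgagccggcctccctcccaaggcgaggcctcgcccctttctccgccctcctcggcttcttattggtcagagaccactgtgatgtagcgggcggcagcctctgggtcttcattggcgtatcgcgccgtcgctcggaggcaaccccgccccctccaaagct

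The Dusp5 window held 2 CArG boxes side by side, CCATATTTGG at positions -82 to -73 and CCTTATATGG at -72 to -63, counted from the transcription start. A GGAA lay just ahead of them at -90 to -87, with others at -9 to -6 and, on the opposite strand, at -191 to -188. Of 32851 mouse windows of this length, 1.63% held a CArG box and 6 held at least 2, so the arrangement at Dusp5 was rare. GGAA was present in 96.0% of windows, so its presence alone says little. Dusp2 had 1 GCGGGGGCG, at -98 to -90, a motif found in 2.91% of windows, and 3 GGAA. Dusp1 had 1 TGACGTCA, at -143 to -136, found in 1.79% of windows, and 1 GGAA after the start. The Dusp6 window (chr10:99262981-99263280, plus strand, not shown) held 6 GGAA and no other match. Dusp10 had no match to any of the 4. A match is a string of letters and does not show that a factor binds there.

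The array check for the deleted genes came out clearly for Sap. Elk4, the gene of Sap-1, fell by 3.42 in untreated cells of both ElkSapKO and SapKO against WT on the 1 of its 4 probe sets with the largest difference (1427162_a_at, limma adjusted p = 6.86e-07 and 3.37e-07). On the remaining 3 the differences from WT ran from -1.21 to 0.54. Elk1 had lower values in untreated ElkKO than in WT on 2 of its 3 probe sets (differences of -0.55 and -0.63, limma adjusted p = 0.268 and 0.231). Their untreated means were 4.94 and 4.38 in WT and 4.39 and 3.75 in ElkKO. The WT mean on the other probe set was 2.78. All of these lay below the background level of 5.07 defined below, so the Elk label was not checked by these signals. Where the Elk1 probes lie relative to the deletion is not given. Of the 9 listed double-positive markers, 8 were measured and all were above the background in every group, with summed log2 signals of 14.66 to 15.23. Background was taken as the highest Xist signal in these male cells, 5.07, and no group mean of any phosphatase probe set lay at or below it. Single arrays did, 1 for Dusp6 and 2 for 1417163_at of Dusp10, all from ElkSapKO. Array quality differed with genotype. The Actb 3′ minus 5′ log2 signal, which grows as RNA breaks down, averaged 0.714 in ElkSapKO arrays, 0.495 in ElkKO, 0.196 in SapKO and 0.224 in WT. One array differed from the rest, that of untreated cells from ElkSapKO mouse 2: the spread of its probe sets around their medians (interquartile range) was 0.782, and no other array exceeded 0.383. Signals of the control transcript dap fell into a low class of 8 arrays, all WT or SapKO, and a high class of 16, which held every ElkKO and ElkSapKO array. The 4 measured markers of mature single-positive T cells, of 5 listed, summed to 8.37 to 9.06 in stimulated ElkSapKO cells, against 9.62 to 10.23 in stimulated WT cells, and to 8.82 to 9.20 in untreated ElkSapKO cells, against 9.93 to 10.64 in untreated WT cells. Of the other cell types, 0 of 2 measured erythroid markers were above background in any group, 1 to 2 of 4 B cell markers, 2 to 3 of 6 macrophage and dendritic cell markers, and 2 of 5 markers of epithelium and stroma.

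Anti-CD3 raised the RNA of 5 of the 6 phosphatase genes within 30 min when the response was averaged over the genotypes. The call of 1 of these 5, Dusp4, was lost in several fits given below. Dusp2 and Dusp5 changed most, with rises of 7.18-fold and 6.12-fold, followed by Dusp6 at 2.31-fold, Dusp1 at 1.94-fold and Dusp4 at 1.39-fold. Dusp10 did not pass the test on either probe set. These 5 probe sets were called, meaning a limma adjusted p under 0.05 over all probe sets, where 1.02% of all probe sets rose by the same rule. The median change over the 7 probe sets was 0.95, beside 0.0026 over all probe sets tested. Because the measurement is of bulk RNA, more RNA per cell and more cells expressing a gene cannot be told apart.

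Among the nuclear phosphatases, Dusp2 (1450698_at, gene on chromosome 2) is the member best known from activated lymphocytes, and it acts on ERK and p38. Its signals were 9.85, 9.79 and 10.79 in stimulated ElkSapKO arrays (mice 1, 2 and 3), against 7.31, 7.61 and 7.64 in untreated ones. ElkKO arrays gave 10.82, 10.99 and 10.75 after anti-CD3, against 8.17, 7.86 and 7.77 untreated. Stimulated cells thus lay above untreated cells by a wide gap in both genotypes, but mice 1 and 2 of ElkSapKO reached lower values than the rest. SapKO arrays gave 10.96, 10.55 and 10.67 after anti-CD3, against 7.87, 7.91 and 8.22 untreated. In WT the stimulated signals were 10.90, 11.06 and 10.99, against 7.82, 8.07 and 7.73 untreated. No stimulated array overlapped any untreated array, and all 12 mice rose, by 2.18 to 3.26. The limma changes were 2.62 ± 0.20 in ElkSapKO, 2.92 ± 0.20 in ElkKO, 2.73 ± 0.20 in SapKO and 3.11 ± 0.20 in WT (SE, 3 arrays a group). Each was called, with adjusted p of 1.22e-07, 2.23e-08, 7.87e-08 and 6.7e-09 in that order (limma, Benjamini-Hochberg).

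Dusp5 (1437199_at, gene on chromosome 19) encodes a nuclear phosphatase selective for ERK. In ElkSapKO cells its signals were 10.99, 10.69 and 10.85 after anti-CD3, against 8.45, 8.94 and 7.90 untreated. The ElkKO values were 11.35, 11.47 and 11.09 after anti-CD3, against 8.84, 8.60 and 8.36 untreated. Each of these mice rose, and the smallest rise of the 12 mice, 1.75, was that of ElkSapKO mouse 2, whose untreated array differed from the rest. SapKO cells gave 11.68, 11.37 and 11.72 after anti-CD3, against 8.94, 8.80 and 9.25 untreated. WT cells gave 11.59, 11.78 and 11.95 after anti-CD3, against 9.02, 9.12 and 8.99 untreated. Stimulated and untreated arrays were again fully apart, and the largest rise in a mouse was 2.97. The limma changes were 2.41 in ElkSapKO, 2.71 in ElkKO, 2.60 in SapKO and 2.73 in WT (SE 0.20 each), with adjusted p of 4.29e-07, 4.79e-08, 1.25e-07 and 4.22e-08. Dusp2 and Dusp5 were the only called members in ElkKO, SapKO and WT, where 0.144%, 0.24% and 0.229% of all probe sets rose by that rule. In ElkSapKO Dusp1 was called as well, making 3 members, where 0.244% of all probe sets rose.

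Dusp1 (1448830_at, gene on chromosome 17), a nuclear phosphatase of p38, JNK and ERK and an immediate early gene in many cells, rose less than Dusp2 and Dusp5. Stimulated ElkSapKO arrays had 9.70, 10.09 and 9.61, against 8.99, 8.43 and 8.74 untreated. In ElkKO the values were 9.93, 10.57 and 10.04 after anti-CD3, against 9.79, 8.92 and 8.99 untreated. The untreated ElkKO array of mouse 1 was the highest untreated array of all, so the change in that mouse was only 0.13, against 1.65 in ElkKO mouse 2. These 2 values depend on the labelled pairing. With the untreated arrays of the 2 mice exchanged, the changes were 1.01 and 0.78. SapKO gave 10.03, 10.22 and 10.03 after anti-CD3, against 9.17, 9.45 and 9.07 untreated. WT gave 10.32, 10.03 and 10.16 after anti-CD3, against 9.59, 8.94 and 9.21 untreated. All 12 mice moved up, and the averaged rise of 0.95 ± 0.11 (SE) had a limma adjusted p of 1.42e-05. Within single genotypes the changes were 1.08 in ElkSapKO (adjusted p = 0.039), 0.95 in ElkKO (0.173), 0.87 in SapKO (0.212) and 0.92 in WT (0.134; limma). The ElkSapKO call held in 12 of the 24 fits that left out 1 array, where adjusted p reached 0.297. It was also lost with mouse as a block (adjusted p = 0.0908) and, with a change of 0.79, when both arrays of ElkSapKO mouse 2 were left out (0.781). With the ElkKO mouse numbers 1 and 2 exchanged, the block gave adjusted p = 0.0235 in ElkKO, 0.0275 in SapKO and 0.0183 in WT. The Dusp1 change thus lay between 0.87 and 1.08 in the 4 genotypes, and which genotypes were called depended on the setting.

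Dusp4 (1428834_at, gene on chromosome 8), a nuclear phosphatase related to Dusp1, had the smallest called change. Its signals were 6.63, 7.01 and 7.46 in stimulated ElkSapKO cells, against 6.06, 5.93 and 6.99 in untreated ones. ElkKO cells gave 6.82, 7.33 and 7.29 after anti-CD3, against 6.84, 6.80 and 7.05 untreated. The stimulated and untreated arrays overlapped in both of these genotypes. SapKO cells gave 7.13, 7.08 and 7.12 after anti-CD3, against 6.79, 6.86 and 6.68 untreated. WT cells gave 6.73, 6.92 and 7.17 after anti-CD3, against 6.59, 6.13 and 6.32 untreated. These were fully apart, and 11 of the 12 mice moved up. The exception was ElkKO mouse 1 at -0.02, which became 0.01 with the untreated array of ElkKO mouse 2 in place of its own. The averaged change of 0.47 ± 0.11 (SE) had a limma adjusted p of 0.0387, and no single genotype was called. That call held in 7 of the 24 fits that left out 1 array, where adjusted p reached 0.0862. It was also lost with median centring (0.46, limma adjusted p = 0.095) and without both arrays of ElkSapKO mouse 2 (0.42, adjusted p = 0.0559).

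Dusp6 (1415834_at, gene on chromosome 10) is the cytoplasmic ERK phosphatase of the group. ElkSapKO arrays had 7.58, 7.77 and 7.02 after anti-CD3, against 6.66, 5.05 and 6.62 untreated. ElkKO arrays had 8.78, 8.40 and 7.81 after anti-CD3, against 7.12, 7.21 and 6.39 untreated. The value of 5.05 belongs to the untreated ElkSapKO array that differed from the rest, and it was not above background, so the change of 2.72 in that mouse is not an exact one. SapKO arrays had 7.80, 7.73 and 8.16 after anti-CD3, against 7.15, 7.23 and 7.11 untreated. WT arrays had 7.73, 8.41 and 8.29 after anti-CD3, against 6.91, 6.67 and 6.90 untreated. Within each genotype the groups did not overlap, and all 12 mice moved up, but no single genotype was called. The averaged rise was 1.21 ± 0.17 (SE; limma adjusted p = 0.000147), and 1.03 (2.53e-05) without both arrays of ElkSapKO mouse 2. Without the untreated array of that mouse, the changes of 1.42 in ElkKO and 1.32 in WT were called (limma adjusted p = 0.00598 and 0.00809).

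**Figure D1:**
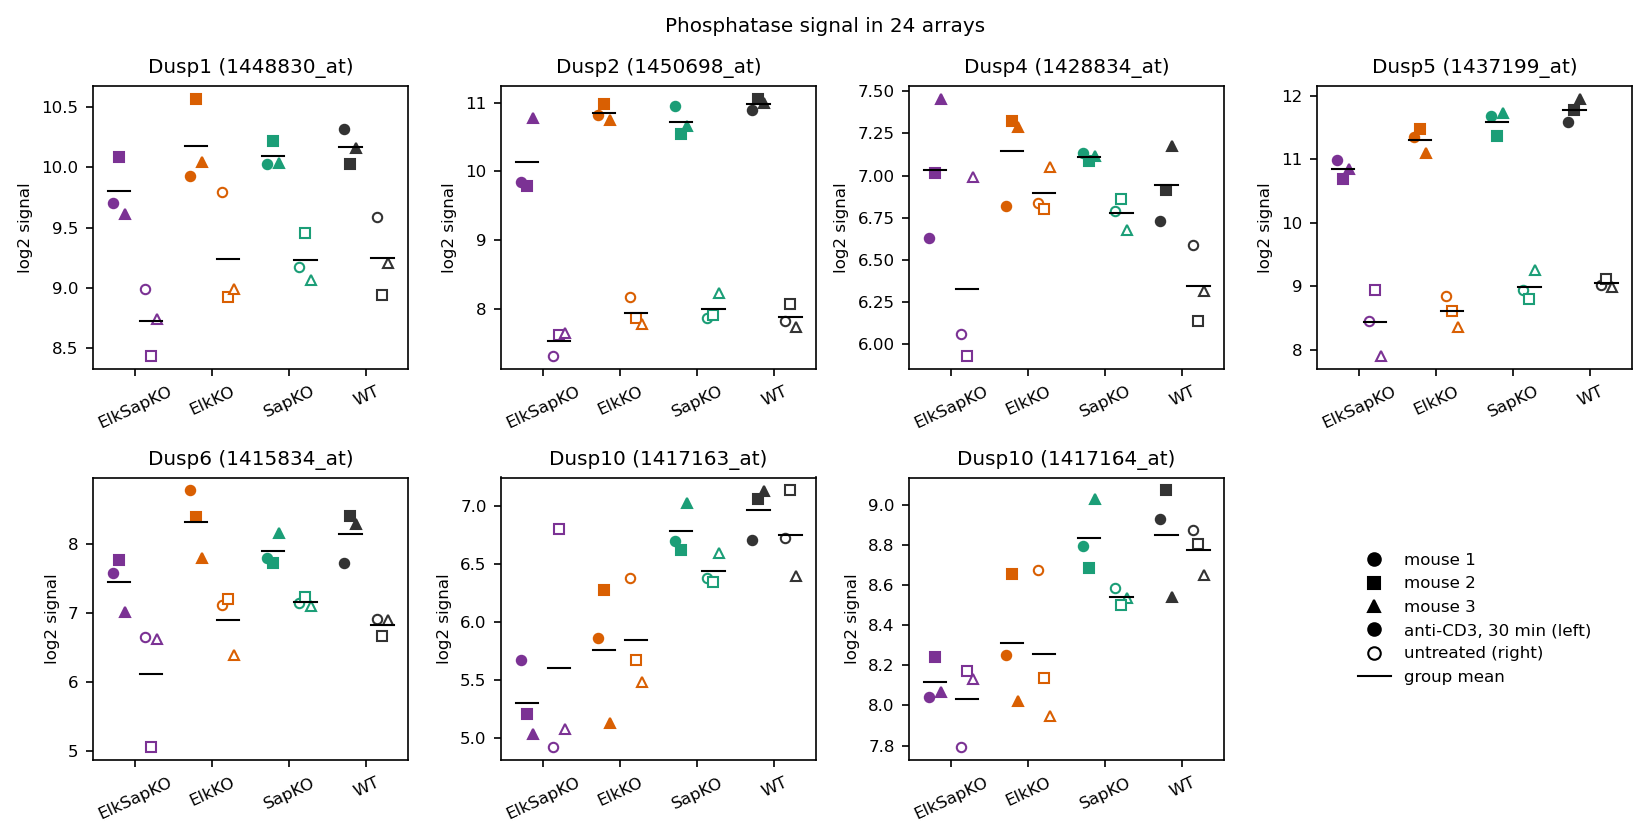
Log2 signal (y axis) of each phosphatase probe set in the 24 arrays, by genotype; filled symbols are anti-CD3 arrays (left), open symbols untreated arrays (right), shapes are mice and lines are group means of 3 arrays. Dusp2 and Dusp5 are fully apart between states. Dusp10 means are lowest in ElkSapKO, whose RNA quality also differs, and show no shift with anti-CD3 that passed the test.

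Dusp10 (gene on chromosome 1), a phosphatase that prefers JNK and p38 to ERK, showed no common direction after anti-CD3. Its probe set 1417164_at gave 8.04, 8.24 and 8.07 in stimulated ElkSapKO cells, against 7.79, 8.17 and 8.13 in untreated ones. In ElkKO it gave 8.25, 8.66 and 8.02 after anti-CD3, against 8.68, 8.14 and 7.95 untreated. The 2 states overlapped in both genotypes, and one ElkKO mouse had its higher value in the untreated array. SapKO cells gave 8.79, 8.68 and 9.03 after anti-CD3, against 8.59, 8.50 and 8.54 untreated, and WT cells gave 8.93, 9.07 and 8.54 against 8.88, 8.80 and 8.65. In SapKO the 2 states did not overlap on either probe set, and all 3 mice rose on both. The SapKO changes were 0.29 on 1417164_at and 0.35 on 1417163_at, and neither was called. The averaged change was 0.13 on 1417164_at, with 9 of 12 mice up, and 0.04 on 1417163_at, with 6 of 12 mice up (limma adjusted p = 0.908 and 1). The 95% intervals of the single-genotype changes on 1417164_at ran from -0.32 to 0.67, so a change of the size seen for Dusp2 or Dusp5 lay outside them. On 1417163_at they ran from -1.07 to 1.12 and were less informative.

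**Figure D2:**
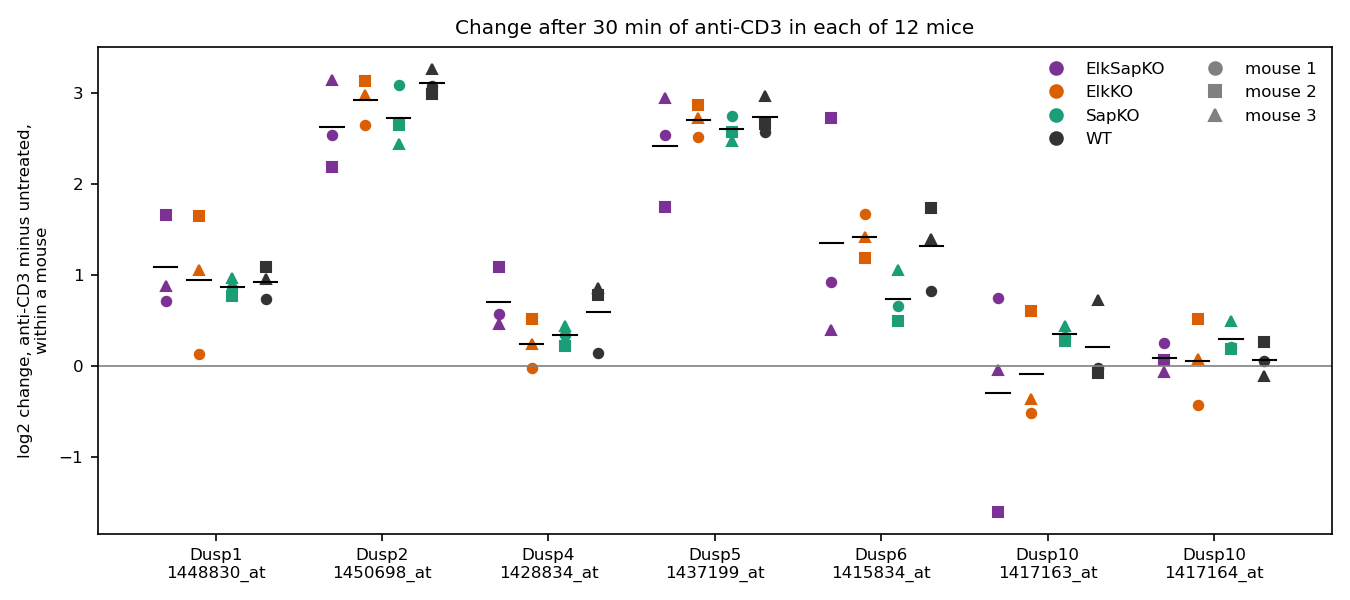
Log2 change within each of the 12 mice (stimulated minus untreated array, y axis) for the 7 probe sets, with the mean of each genotype as a line. All points of Dusp1, Dusp2, Dusp5 and Dusp6 lie above 0, with Dusp2 between 2.18 and 3.26 and Dusp5 between 1.75 and 2.97.

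The response to anti-CD3 was then compared between genotypes, which asks whether the induction of these genes differed in cells lacking Elk, Sap or both. No member was called in any of 5 tests of a difference between responses, and none reached an unadjusted p under 0.05 (limma). Over all probe sets, 0.00222% were called in the ElkSapKO difference, 0.00222% in the SapKO one and 0% in the ElkKO one; by Sap and by Elk status it was 0.00222% and 0%. Only 1.06% to 5.19% of all probe sets had an unadjusted p under 0.05 in these tests, so 0 of 7 members is near the background. The Dusp2 response was 0.49 smaller in ElkSapKO than in WT (difference -0.49, 95% interval -1.08 to 0.10, limma adjusted p = 0.729). For Dusp5 the ElkSapKO minus WT difference was -0.32 (interval -0.90 to 0.27, adjusted p = 0.742), and it was 0.0128 without both arrays of ElkSapKO mouse 2. In SapKO the differences from WT were -0.39 for Dusp2 and -0.13 for Dusp5, and in ElkKO they were -0.19 and -0.03. These 3 comparisons share the WT arrays. The intervals leave room for a Dusp2 response in ElkSapKO that was smaller by up to 1.08, so the tests do not show that the responses were alike. The ElkSapKO responses of Dusp2 and Dusp5 had lower 95% bounds of 2.21 and 2.00, from a spread estimated over all 8 groups. The changes of single mice had an SD of 0.49 and 0.61 in ElkSapKO, against 0.14 and 0.21 in WT. With only the ElkSapKO groups fitted, the 2 responses were not called (limma adjusted p = 0.118 and 0.119).

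Signal levels, as opposed to responses, did differ between ElkSapKO and WT. In stimulated cells Dusp2, Dusp5 and both Dusp10 probe sets fell, 4 of the 7 members, where 4.28% of all probe sets fell by the same rule. In untreated cells 1417164_at of Dusp10 was the 1 member that fell, where 4.16% of all probe sets fell. The median difference over the 7 probe sets was -0.73 in stimulated and -0.62 in untreated cells, beside 0.03 and 0.05 over all probe sets tested. In these comparisons the markers of mature single-positive cells, the Actb 3′ minus 5′ signal and the dap class moved with genotype as given above. The part of the markers in the results was not tested, and fits with the other 2 measures follow beside them.

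Dusp5 in stimulated cells was 1.91-fold lower in ElkSapKO, at 10.84 ± 0.15, than in WT, at 11.77 ± 0.18 (SD, n = 3 each; difference -0.93 ± 0.20 SE, limma adjusted p = 0.0105). All 3 ElkSapKO arrays lay below all arrays of the other genotypes, and the means ran from ElkSapKO through ElkKO and SapKO to WT, with only ElkSapKO separate from its neighbour. Dusp2 was 1.79-fold lower, at 10.14 ± 0.56 in ElkSapKO and 10.98 ± 0.08 in WT (difference -0.84 ± 0.20, adjusted p = 0.0176). Here ElkSapKO overlapped the next genotype, since its mouse 3 had 10.79. Without both arrays of ElkSapKO mouse 2 the difference was -0.67 for Dusp2 (limma adjusted p = 0.0556). In untreated cells the differences were -0.62 for Dusp5 (limma adjusted p = 0.0729) and -0.35 for Dusp2 (0.286), neither called, and the Dusp2 one turned to 0.0394 with the Actb 3′ minus 5′ signal as a covariate. The untreated Dusp5 difference moved both ways with single mice, to -0.87 (adjusted p = 0.0109) without both arrays of ElkSapKO mouse 2 and to -0.35 (0.157) without untreated ElkSapKO array 3.

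In stimulated ElkSapKO cells Dusp10 differed from WT on both probe sets, by more than Dusp2 and Dusp5 on 1417163_at and by less on 1417164_at. After anti-CD3, 1417163_at gave 5.67, 5.20 and 5.04 in ElkSapKO, against 6.70, 7.06 and 7.12 in WT, a 3.16-fold lower level (difference -1.66 ± 0.37 SE, limma adjusted p = 0.0135). The ElkSapKO value of 5.04 was not above background, so the fold is approximate. Its ElkKO arrays, at 5.86, 6.27 and 5.13, also lay below all WT arrays, while the SapKO arrays, at 6.70, 6.62 and 7.03, overlapped WT. The group order was the same on 1417164_at, where ElkSapKO was 0.73 below WT (difference -0.73 ± 0.18, adjusted p = 0.0227). In untreated cells 1417163_at gave 4.92, 6.80 and 5.08 in ElkSapKO, 6.37, 5.67 and 5.49 in ElkKO, 6.37, 6.34 and 6.59 in SapKO, and 6.72, 7.13 and 6.40 in WT. The value of 4.92 was not above background. The value of 6.80 came from the array that differed from the rest and was the only ElkSapKO value in the WT range. The untreated difference was -1.15 on this probe set (limma adjusted p = 0.0727) and -0.75 on 1417164_at (0.0216). Leaving out both arrays of that mouse gave -1.75 (adjusted p = 0.00343) on 1417163_at.

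**Figure D3:**
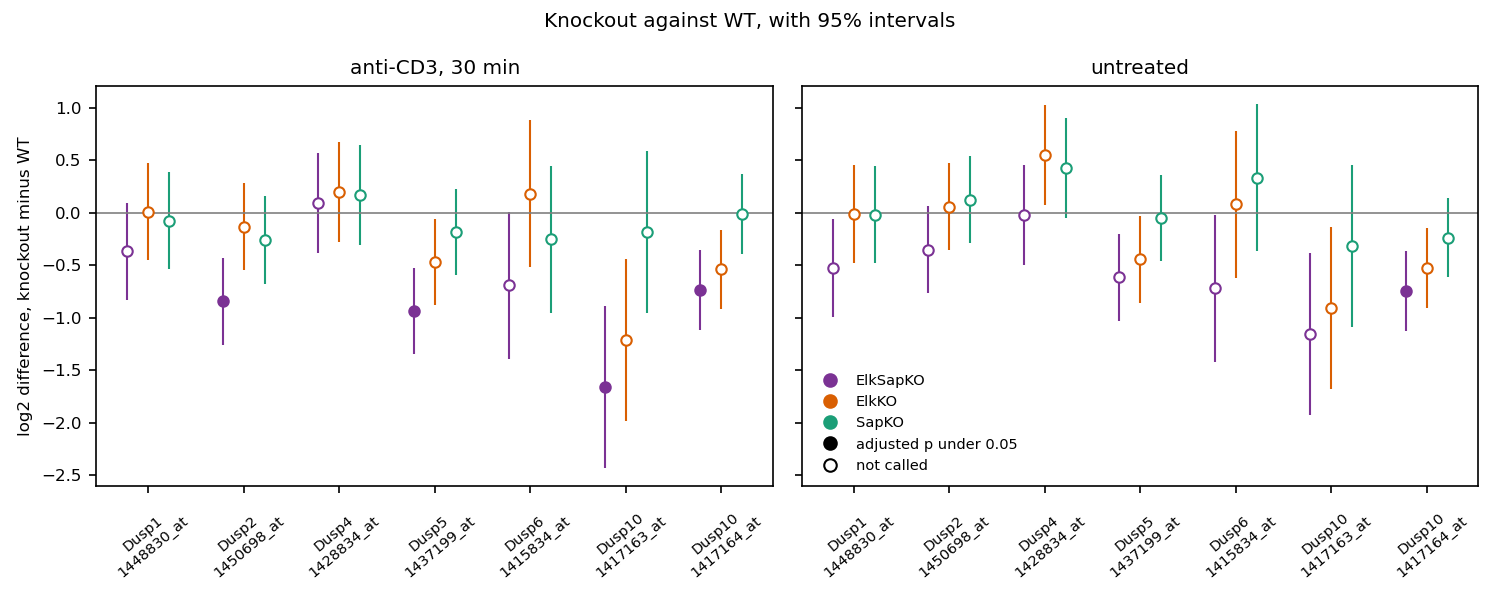
Log2 difference, knockout minus WT, with 95% limma intervals, for each probe set in stimulated (left) and untreated cells (right); filled points had an adjusted p under 0.05. The called points are ElkSapKO for Dusp2, Dusp5 and both Dusp10 probe sets after anti-CD3, and for 1417164_at in untreated cells.

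These genotype calls did not hold in every fit. With the dap class as a block the 4 stimulated differences were -0.74 for Dusp2, -0.86 for Dusp5, and -1.55 and -0.58 for Dusp10, and none was called (limma adjusted p from 0.0679 to 0.145). Within the high dap class, where WT has 1 stimulated array, the mean of the 3 ElkSapKO arrays differed from it by -0.851 for Dusp2, -1.114 for Dusp5, and -1.819 and -0.426 for Dusp10. With the Actb 3′ minus 5′ signal as a covariate, a fit chosen after the data were seen, the differences were -0.41, -1.003, -1.90 and -0.61 in the same order, and none was called (adjusted p from 0.264 to 0.705). The ranges of this signal did not overlap between ElkSapKO, 0.545 to 1.05, and WT, 0.151 to 0.359. RNA quality and the ElkSapKO genotype therefore cannot be told apart in these arrays. Leaving out stimulated ElkSapKO array 2 alone took all 4 adjusted p to 0.0513 to 0.0978. Dusp2 was also lost without stimulated ElkSapKO array 1 (0.116) or WT array 2 (0.0621), and 1417164_at without stimulated ElkSapKO array 1 (0.103), WT array 1 (0.0814) or WT array 2 (0.0956). In untreated cells the 1417164_at call was lost without WT array 1 (0.112), WT array 2 (0.0689) or ElkSapKO array 1 (0.081).

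**Figure D4:**
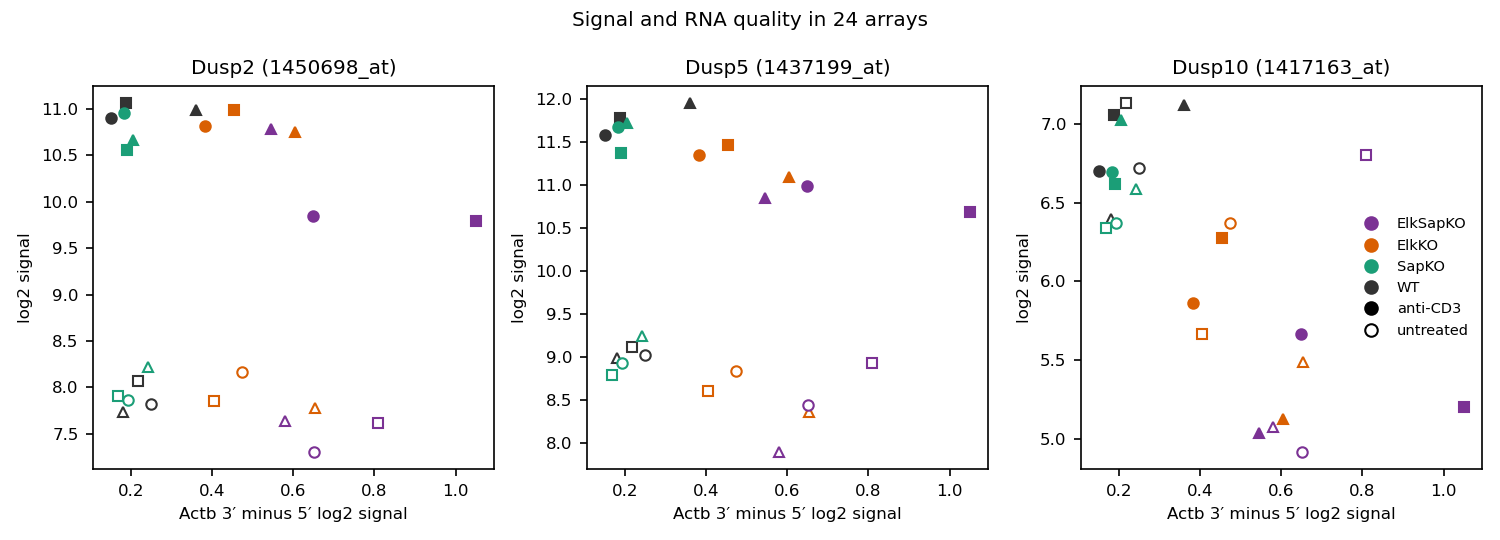
Log2 signal (y axis) of Dusp2, Dusp5 and Dusp10 1417163_at against the Actb 3′ minus 5′ log2 signal (x axis) in the 24 arrays, with stimulated arrays filled and untreated arrays open. ElkSapKO arrays lie between 0.545 and 1.05 on the x axis and WT arrays between 0.151 and 0.359.

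The remaining members and the single knockouts gave no call. Dusp1, Dusp4 and Dusp6 did not pass the test in ElkSapKO against WT, with stimulated differences of -0.37, 0.09 and -0.69 and untreated ones of -0.53, -0.02 and -0.72. The untreated Dusp6 difference rested on the array of ElkSapKO mouse 2 and was -0.19 without it (limma adjusted p = 0.79). In ElkKO against WT no member was called, where 0.144% of all probe sets were called after anti-CD3 and 0.0933% untreated. At an unadjusted p under 0.05, 3 members were lower in each state and 1 was higher untreated (limma). Of all probe sets, 5.52% were lower after anti-CD3, and 5.14% were lower and 3.46% higher untreated at that threshold. Both Dusp10 probe sets were among them, with stimulated differences of -1.21 and -0.54 and untreated ones of -0.91 and -0.52. So was Dusp5, with -0.47 stimulated and -0.44 untreated, and Dusp4 was the higher one, with 0.55 untreated. The Actb 3′ minus 5′ signal did not overlap between ElkKO, 0.381 to 0.654, and WT, 0.151 to 0.359. All ElkKO arrays were also in the high dap class. RNA quality and the ElkKO genotype therefore cannot be told apart in these differences either. In SapKO against WT no member was called, where 0.0755% of all probe sets were called after anti-CD3 and 0.0888% untreated, and none had an unadjusted p under 0.05. For Dusp2 the SapKO difference was -0.26 stimulated and 0.13 untreated, and for Dusp5 it was -0.18 and -0.05.

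Other genes of the pathway were counted from 4 lists written with earlier results of these arrays known. In the averaged response 1.02% of all probe sets were called higher. At an unadjusted p under 0.05, 4.1% of all probe sets were higher and 3.64% were lower (limma). Of 19 other dual-specificity and related phosphatases, none was called in the averaged response, and 1 was higher and 2 were lower at an unadjusted p under 0.05 (limma); their changes ran from -0.18 to 0.14. The 16 measured MAP kinases and upstream kinases gave 0 calls and none with an unadjusted p under 0.05. Among 11 measured genes of other ERK feedback, 0 were called and 3 were higher at an unadjusted p under 0.05, which were Spry1, Spry2 and Spry4 (0.34, 0.40 and 0.18), Sprouty proteins that restrain receptor signalling to ERK. These 3 were chosen for naming after their values were seen. Mean signals over the 24 arrays were 4.70 for Spry2 and 4.29 for Spry4, below the background level of 5.07, and 5.98 for Spry1. The rises of Spry2 and Spry4 therefore rest on signals near background. By contrast 9 of the 15 listed ERK target genes, most of them transcription factor genes, rose. Egr1 and Egr2, zinc finger factors, rose by 6.43 and 6.16, the orphan nuclear receptor Nr4a1 by 5.15 and Ier2 by 3.23 (limma adjusted p from 5.04e-18 to 2.69e-12). List medians were 0.02 for the other phosphatases, 0.03 for the kinases, 0.06 for the feedback genes and 1.35 for the ERK target genes, beside 0.0026 over all probe sets tested.

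**Figure D5:**
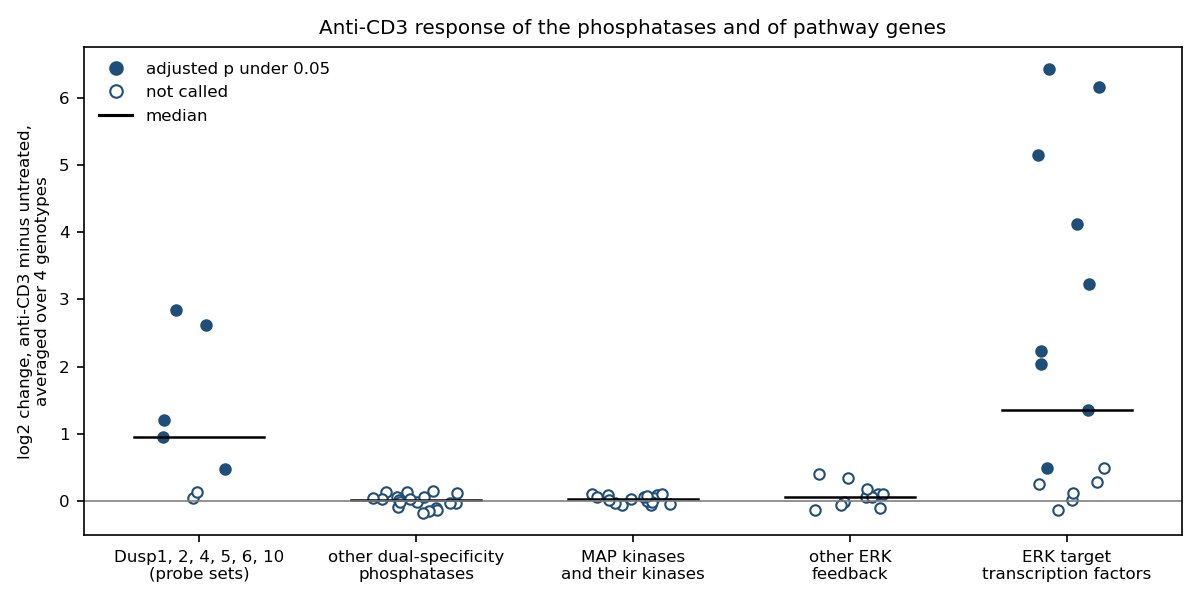
Log2 change after anti-CD3, averaged over the 4 genotypes (y axis), for the 7 phosphatase probe sets and for genes of 4 pathway lists, 1 probe set a gene; filled points had a limma adjusted p under 0.05 and lines are medians. Filled points occur among the phosphatases (5 of 7) and the ERK target genes, most of them transcription factor genes (9 of 15).

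Levels in ElkSapKO against WT were lower for several genes of these lists as well. The shares of all probe sets that fell by the same rule were 4.28% after anti-CD3 and 4.16% untreated. After anti-CD3, 6 of the 15 ERK target genes fell, among them Egr2 by 2.15 and Egr1 by 1.15 (limma adjusted p = 0.00146 and 0.0165). In untreated cells 1 of the 15 fell, the AP-1 gene Junb, by 0.90 (limma adjusted p = 0.0473). Of the 16 kinases 3 fell after anti-CD3, which were Map2k6 and Map2k3, kinases of p38, and Mapk7, and 4 fell untreated, which were Map2k6, Mapk9, Araf and Map2k1. Map2k6 fell by 0.72 after anti-CD3 and by 1.02 untreated (limma adjusted p = 0.00489 and 0.000628). Of the 11 feedback genes, the adaptor genes Dok1 and Dok2 and the Ras pathway inhibitor gene Spred2 fell after anti-CD3, by 0.80, 0.93 and 0.60. Dok1, Dok2 and Rasa3, which encodes a Ras GTPase-activating protein, fell untreated, by 0.50, 0.65 and 0.51. None of the 19 other phosphatases was called in either state. At an unadjusted p under 0.05 there were 0 after anti-CD3 and 4 untreated (limma). Of all probe sets, 21.8% after anti-CD3 and 23.4% untreated passed that threshold. The genes in this paragraph were named after their values were seen, and the quality and marker values given for these genotypes above stand beside them too.

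The genes whose signals were most like each phosphatase were found by Pearson r over the 24 arrays among 16474 probe sets. Both states enter each r, and within the 12 stimulated arrays r was lower than over all 24 for each named gene except the 3 named for Dusp10. Dusp2 was most like Nfkbid, which encodes an atypical IκB protein (0.989), then Zfp36, which encodes an RNA-binding protein that promotes mRNA decay (0.986), and Egr1 (0.985), with 0.839, 0.906 and 0.797 within stimulated arrays. Dusp5 was most like Ier2 (0.985, with 0.916 within stimulated and 0.667 within untreated arrays), Zfp36 (0.978) and Nr4a1 (0.976). Dusp1 was most like Zfp36l1, a relative of Zfp36 (0.94), and the AP-1 genes Fos (0.936) and Junb (0.918). Within stimulated arrays these were 0.575, 0.732 and 0.686. For Dusp6 the closest were Zfp36l1 (0.903), Mideas (0.903) and the Mediator subunit gene Med7 (0.896), but only at 0.401, 0.63 and 0.539 within stimulated arrays. Dusp4 was less closely followed, by Zfp330 and Frmd4b (0.805 each) and Ndel1 (0.793), with 0.585, 0.338 and 0.316 within stimulated arrays. Dusp10 (1417164_at) was most like the proteasome activator gene Psme3 (0.909), Frg1 (0.896) and the transcription factor gene Mef2d (0.878). For Psme3 the r was 0.935 within stimulated and 0.892 within untreated arrays.

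Among the members themselves, Dusp2 and Dusp5 had an r of 0.977 over the 24 arrays, 0.721 within stimulated and 0.562 within untreated arrays. Dusp5 and Dusp10 (1417163_at) correlated weakly over all arrays (0.28) but at 0.938 within stimulated and 0.887 within untreated arrays. Within a state the arrays still differ in genotype, RNA quality and dap class. The 2 Dusp10 probe sets had an r of 0.849. These correlations are descriptions of 24 arrays that share genotype, state and RNA quality, and were not tested.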

How the data were processed

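RNA from sorted thymocytes was hybridised to 24 Mouse430_2 arrays, 3 in each of 8 groups. The authors deposited log2 signals per probe set, made with RMA in the affy package per the submitters' processing notes; RMA corrects background, quantile normalises the arrays and summarises probes. The versions of both were not given in the sources used here. Of 45101 probe sets, 64 controls were left out. limma 3.58.1 (R 4.3.3) fitted a mean for each group with 16 residual degrees of freedom and gave 16 contrasts. P values were two-sided and adjusted by Benjamini-Hochberg over all 45037 probe sets within each contrast. A single symbol was listed for 34945 probe sets, and gene lists used the brightest of these per gene. The model was run on simulated data with independent noise in each array. That run does not cover mouse pairs, RNA quality or dap class. Figures were drawn with matplotlib 3.10.9.

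The members and lists were chosen with earlier results of these data known. All probe sets of the members are named. Of the pathway lists, up to 4 genes each that were called in the averaged response are named by a fixed rule. The other pathway genes were named after their values were seen. For each member the 3 most similar genes are named, among those whose signals ranged over at least 1 log2 unit. The labels state that equal mouse numbers are 1 animal. After group means were removed, the 12 such pairs correlated at 0.086 to 0.864, 11 of them above 0.1. ElkKO numbers 1 and 2, with 0.176 and 0.239 against 0.864 for ElkKO number 3, were also tried exchanged. The Sap status contrast sets the mean response of SapKO and ElkSapKO against that of WT and ElkKO, and the Elk status contrast likewise. Alternatives were 1 probe set or the mean per gene, median centring, array weights, dim probe sets left out, only the compared groups, mouse or dap class as a block, and each array left out. Added after the data were seen were the Actb covariate and a fit without both arrays of ElkSapKO mouse 2. The number of arrays limits the precision.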

Additional observations from a re-analysis of the deposited data

How the results depend on the processing

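The rises of Dusp2 and Dusp5 kept their call in all 4 genotypes in every fit, except that with only the compared groups ElkSapKO had adjusted p = 0.118 and 0.119 (limma). Mouse as a replicate block changed 1 call, Dusp1 in ElkSapKO (adjusted p = 0.0908), and with ElkKO numbers exchanged added Dusp1 in the other 3 genotypes. Member counts moved by over 1.5 times as follows. In the ElkSapKO response, 3 were called, against 5 with array weights and 0 with only the compared groups. Those alternatives called 1005 and 11 of all probe sets, in either direction. The ElkKO response had 2, against 4 with array weights, and the SapKO response 2, against 4 with only the compared groups. Here 276 and 381 of all probe sets were called. ElkSapKO against WT untreated had 1, against 3 with median centring, 4 with array weights and 3 with dim probe sets left out. These fits called 3002, 15241 and 2852 of all probe sets. Only the compared groups, dap class as a block and the Actb covariate each gave 0, where 3, 370 and 7 of all probe sets were called. Without ElkSapKO mouse 2 the count was 3, where 2513 of all probe sets were called. ElkSapKO against WT stimulated had 4, against 2 with only the compared groups, 0 with dap class as a block and 0 with the Actb covariate. Of all probe sets, 246, 443 and 23 were called in that order. ElkKO against WT had 0 in both states, against 2 untreated and 1 stimulated with array weights, and 1 stimulated without ElkSapKO mouse 2. Over all probe sets these were 2311, 1003 and 733 calls. Directions turned for Dusp2 with the Actb covariate, at 0.0394 in ElkSapKO against WT untreated and 0.0755 in ElkKO against WT stimulated. They turned for Dusp5 without ElkSapKO mouse 2, at 0.0128 in the ElkSapKO minus WT response difference and 0.0594 by Elk status. The causes were not tested. Leaving out 1 array at a time gave 2 to 4 called in the ElkSapKO response, 2 to 3 in ElkKO, 2 in SapKO, 2 to 3 in WT and 4 to 5 averaged. It gave 0 to 3 for ElkSapKO against WT untreated, 0 to 4 stimulated, and 0 to 1 for ElkKO against WT stimulated. Where these counts moved by over 1.5 times, 344 to 2517, 529 to 1119 and 715 of all probe sets were called, in that order. With 1 array left out, Dusp10 1417163_at ranged from -0.0417 to 0.19 in the averaged response. Dusp2 ranged from -0.0573 to 0.16 in ElkKO against WT untreated, and Dusp5 from -0.18 to 0.0499 in SapKO against WT untreated. The Dusp5 response differences ranged from -0.14 to 0.0924 for ElkKO minus WT and from -0.24 to 0.0207 by Elk status.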
